A study of Mus musculus with 4 samples.

Results

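The genes described here are Yap1, 4 genes used as readouts of its transcriptional activity (Ccn1, Ccn2, Ankrd1 and Amotl2) and 5 genes of the contractile cytoskeleton (Tagln, Acta2, Myl9, Tpm1 and Cnn1). They were chosen by gene symbol from the count tables, and all 10 were found among 78028 rows. The data are 4 RNA libraries, each from an independently grown culture of E14TG2a, a line of mouse embryonic stem cells, carried through an advanced hepatic-inducing cocktail (A-HIC) and labelled hepatocyte-like. The labels give no genotype change, time point or dose, and the series holds a single group with no untreated or undifferentiated control, so all values describe levels and the spread between cultures of a single line. Libraries 1 to 4 carry the labels' replicate numbers.

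YAP, the product of Yap1, is a transcriptional coactivator without a DNA-binding domain of its own. The Hippo kinases MST and LATS phosphorylate it and keep it in the cytoplasm, and when it escapes them it binds TEAD factors in the nucleus and switches on genes such as Ccn1, Ccn2, Ankrd1 and Amotl2. Tension in the actin cytoskeleton favours nuclear YAP, and the same tension frees the cofactors MRTF-A and MRTF-B to act with serum response factor (SRF) on contractile genes such as Acta2, Tagln and Cnn1. In liver, YAP activity is known from organ size control and from hepatic stellate cells, in which contractile genes mark the activated state. The activity of YAP is set largely by phosphorylation and location, which transcript counts do not measure.

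Promoter sequence was examined because TEAD and SRF bind short, well defined DNA motifs. The RefSeq promoter table (build GRCm38.p6, which is not the submitters' build) held 8 of the 10 members, and Ccn2 and Tagln are named only. In the 250 bases before the annotated start, the TEAD core hexamer GGAATG, searched on both strands (CATTCC on the other), was found in 6 of 8 members: Yap1, Ccn1, Ankrd1, Amotl2, Acta2 and Tpm1. The same hexamer occurred in 4153 of 32851 promoter windows of that length in the table, or 12.6%. An exact match to the 10-base consensus of the SRF motif known as the CArG box, which reads as itself on the other strand, occurred in 1.47% of these windows and in 1 of 8 members, Myl9. With at most 1 base off that consensus, a search added after seeing the data, 3 of 8 members held it, Acta2 (beginning 84 and 34 bases before the start), Myl9 (161 and 99) and Tpm1 (221 and 80), against 18.6% of all windows. No match of one motif overlapped a match of the other in the members, and a match describes letters and not a bound site. The full 250 bases are shown for 2 target genes and 2 contractile genes, 5′ to 3′ on the gene's strand, with exact matches in capitals; Ankrd1 carries the hexamer at 2 places, beginning 210 and 123 bases before the start.
Ccn1, chr3:145649986-145650235, minus strand: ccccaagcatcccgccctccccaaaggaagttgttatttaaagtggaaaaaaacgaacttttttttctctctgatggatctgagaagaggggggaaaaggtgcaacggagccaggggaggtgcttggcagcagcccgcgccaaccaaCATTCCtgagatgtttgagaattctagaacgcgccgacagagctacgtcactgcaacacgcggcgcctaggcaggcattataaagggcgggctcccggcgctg
Ankrd1, chr19:36119845-36120094, minus strand: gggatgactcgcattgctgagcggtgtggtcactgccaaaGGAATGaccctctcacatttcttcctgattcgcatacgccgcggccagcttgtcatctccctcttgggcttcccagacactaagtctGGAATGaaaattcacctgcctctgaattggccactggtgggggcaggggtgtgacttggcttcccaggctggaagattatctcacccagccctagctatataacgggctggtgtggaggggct
Acta2, chr19:34255374-34255623, minus strand: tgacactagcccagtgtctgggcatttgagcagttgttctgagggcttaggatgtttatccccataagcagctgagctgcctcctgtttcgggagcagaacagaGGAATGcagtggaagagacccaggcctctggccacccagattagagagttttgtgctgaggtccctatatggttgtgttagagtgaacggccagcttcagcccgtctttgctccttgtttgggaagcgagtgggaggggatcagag
Myl9, chr2:156775214-156775463, plus strand: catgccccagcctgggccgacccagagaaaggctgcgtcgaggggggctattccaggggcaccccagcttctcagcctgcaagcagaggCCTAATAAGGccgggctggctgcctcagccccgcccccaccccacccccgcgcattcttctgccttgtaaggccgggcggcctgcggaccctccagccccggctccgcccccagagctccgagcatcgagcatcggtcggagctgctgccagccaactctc

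For Yap1, Amotl2 and Tpm1, whose hexamers begin 141, 65 and 56 bases before the start, 40 bases around the match are shown in the same way. No match to either motif, the search with 1 base off included, was found in the letters of the Cnn1 window.
Yap1, chr9:8004715-8004754, minus strand: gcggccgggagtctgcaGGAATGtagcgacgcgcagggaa
Amotl2, chr9:102717722-102717761, plus strand: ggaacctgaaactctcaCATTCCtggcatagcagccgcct
Tpm1, chr9:67049247-67049286, minus strand: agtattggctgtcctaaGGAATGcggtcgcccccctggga

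The libraries held 29518642 to 40154964 counts. Transcript levels are given as TPM, which scales a count by the length of the gene's exons and by library size. A gene is called expressed here at 1 TPM or more in all 4 libraries. Hepatocyte markers were sparse, with 4 of 14 expressed, Fabp1 at 0 counts in every library and a summed level of 24.5 to 99.9 TPM, whereas 11 of 11 pluripotency markers were expressed, with a summed level of 4710 to 8389 TPM. The cells are therefore referred to by the label of their libraries. In bulk RNA, fewer cells of a type and less RNA per cell cannot be told apart.

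Of the 10 members, 9 were expressed, against 63.3% of 19950 protein-coding genes with a length and 30.3% of 48761 rows of any type. Tagln was the exception, at or above 1 TPM in library 2 only. Levels ran from 0.957 ± 0.237 TPM for Tagln (SD, n = 4) to 160.4 ± 55.4 TPM for Ccn1. The contractile genes divided into abundant and scarce members, while the YAP targets were abundant except for Ankrd1.

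**Figure D1:**
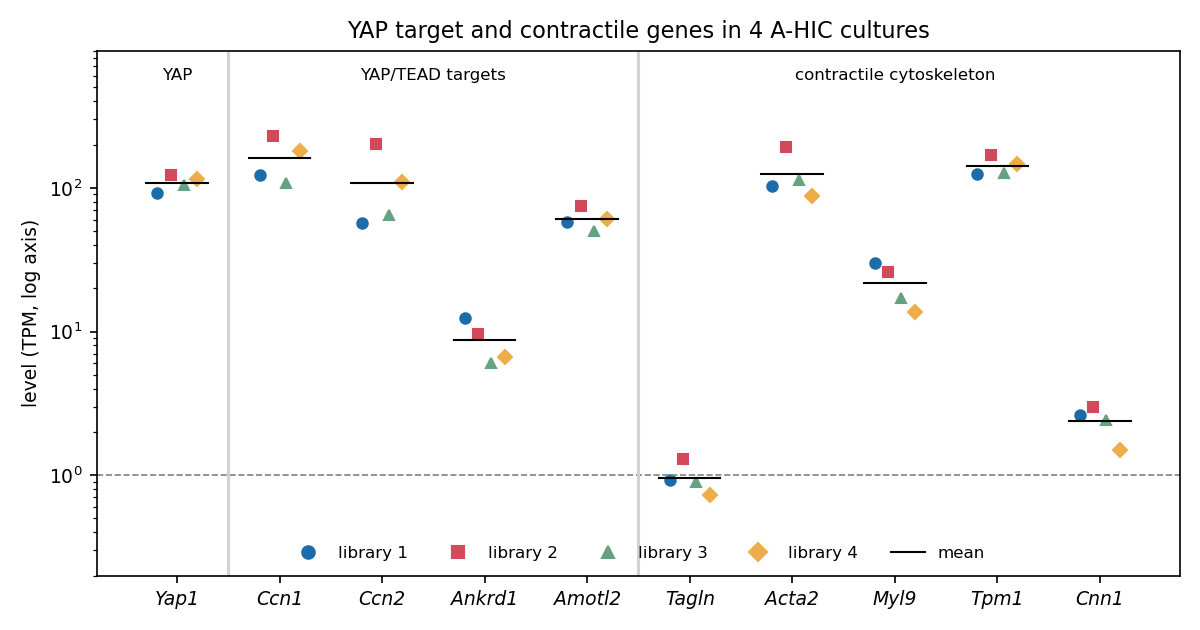
Level of each of the 10 genes in TPM (log axis) in the 4 libraries; points are libraries, horizontal bars are means of 4 libraries and the dashed line marks 1 TPM. Tagln, Cnn1 and Ankrd1 lie lowest, at means of 0.957, 2.38 and 8.68 TPM, and Ccn1, Tpm1 and Acta2 highest, at 160.4, 143 and 124.3 TPM.

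Yap1 stood at 91.5, 123, 105 and 116 TPM in libraries 1 to 4, a mean of 109 ± 13.8 TPM (SD, n = 4). Its level lay at the 90.7th percentile of protein-coding genes, and library 1 was the lowest of 4 values that differed by at most 1.35-fold. Wwtr1, which encodes the related coactivator TAZ, stood at 98.6, 123, 115 and 119 TPM. Yap1 made up 48.8% ± 1.06 (SD, n = 4) of the summed TPM of the pair, so both coactivators were present at similar transcript levels when length was taken as the union of exons. Over the longest transcript of each gene, Yap1 was the higher of the pair by 0.72 on the log2 scale, so the order of these genes rests on the length used.

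All 4 TEAD genes, which encode the DNA-binding partners of YAP and TAZ, were expressed. Tead1 was the highest at 98.4 ± 22.4 TPM, followed by Tead2 at 74.7 ± 5.78 TPM, Tead4 at 36.6 ± 4.70 TPM and Tead3 at 11.6 ± 1.32 TPM (SD, n = 4). The ranges of Tead1 and Tead2 overlapped, since Tead1 stood at 79.6, 127, 81.9 and 105 TPM and Tead2 at 77.5, 67.5, 80.8 and 72.9 TPM. Of the VGLL genes, whose products compete with YAP for TEAD or act with it, Vgll3 and Vgll4 were expressed at 20.0 ± 6.83 and 10.6 ± 1.71 TPM. Vgll1 was at 11, 3, 27 and 3 counts, and Vgll2 at 2, 4, 0 and 1 counts.

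The kinase cassette that restrains YAP was present in full: 13 of 13 listed genes for Hippo kinases and their adaptors were expressed, led by Map4k4, Mob1a and Stk4 at 187 ± 35.8, 166 ± 21.6 and 77.9 ± 3.19 TPM (SD, n = 4). Stk4 and Stk3 encode the MST kinases, and Stk3 stood at 26.9 ± 1.83 TPM. Lats1, which encodes a kinase acting directly on YAP, stood at 33.7 ± 6.21 TPM, and its paralog Lats2 was the lowest of the 13 at 6.68 ± 1.84 TPM. The adaptor Sav1 was next lowest at 8.05 ± 1.91 TPM. In GENCODE M21, exons of other genes cover 42.4% of the exon bases of Lats2 and 25.4% of those of Sav1. Strand was not kept in these libraries, so both levels are uncertain. With whole counts divided by the uncovered bases, Lats2 would stand at up to 11.6 TPM and Sav1 at up to 10.8 TPM. Their order is therefore not settled. Among regulators at cell junctions, 15 of 16 genes were expressed, with Nf2, the merlin tumour suppressor, at 139.5 ± 8.22 TPM and Amotl1 at 67.4 ± 15.9 TPM. Fat4, a giant cadherin of the pathway, was the member not expressed at 0.861 ± 0.295 TPM, and its binding partner Dchs1 stood at 9.58 ± 3.47 TPM.

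**Figure D2:**
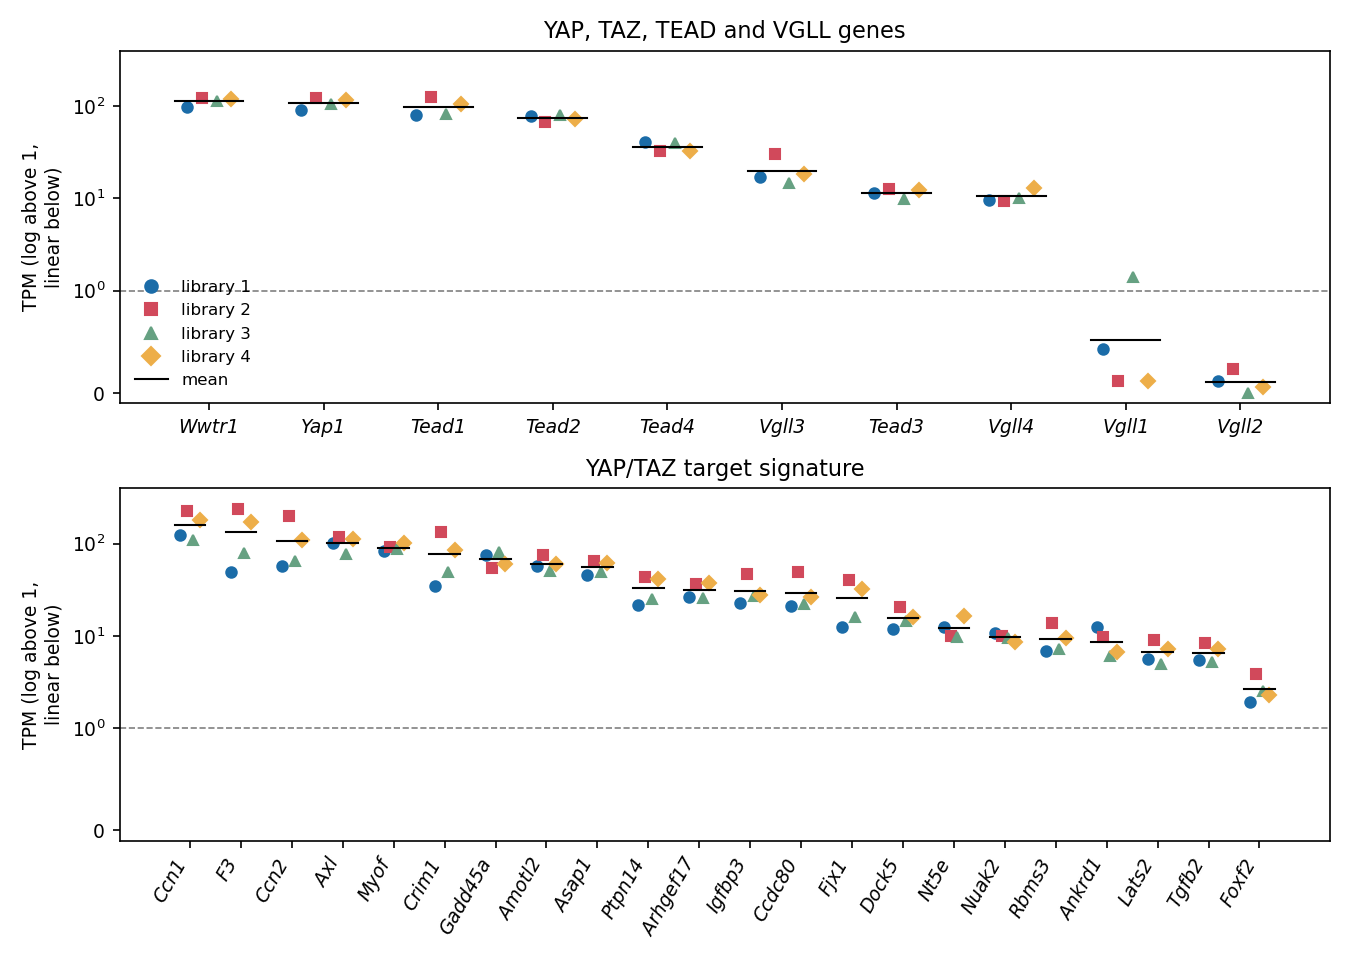
TPM of YAP, TAZ, TEAD and VGLL genes (upper) and of a 22-gene YAP/TAZ target signature (lower) in the 4 libraries, ordered by mean (bars); the axis is logarithmic above 1 TPM and linear below. All 22 signature genes lie above the dashed line at 1 TPM in every library. Vgll2 lies near 0, and Vgll1 lies below the line except in library 3, at 1.40 TPM.

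Ccn1 and Ccn2 encode secreted matricellular proteins and are the target genes used most often to follow YAP. Ccn1 stood at 123, 229, 108 and 181 TPM in libraries 1 to 4. Libraries 2 and 4 were high and libraries 1 and 3 low. Ccn2 stood at 56.9, 200.5, 65.0 and 109.7 TPM, a mean of 108 ± 65.8 TPM (SD, n = 4), with the same libraries high and a span of 3.52-fold, the widest of the 10 members. Within the CCN family, Ccn1 made up 53.6% ± 4.74 and Ccn2 33.5% ± 5.99 of the summed TPM. Ccn4 stood at 32.6 ± 11.0 TPM and Ccn3 at 4.203 ± 1.13 TPM, while Ccn5 and Ccn6 were not expressed, at 0.377 ± 0.411 and 0.408 ± 0.108 TPM. For Ccn2, an opposite-strand gene, Gm15270, covers 23.2% of the exon bases and had 268, 408, 436 and 414 counts of its own. With its whole count divided by the remaining bases, Ccn2 would stand at 141 ± 85.8 TPM, an upper bound.

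Ankrd1, which encodes a nuclear and sarcomeric ankyrin repeat protein also known from heart muscle, was far lower. It had 369, 284, 138 and 199 counts, or 12.4, 9.68, 6.07 and 6.61 TPM, a mean of 8.68 ± 2.93 TPM (SD, n = 4). Its highest value was in library 1 and not in library 2, unlike Ccn1 and Ccn2, and its level lay at the 51.6th percentile of protein-coding genes. The related muscle genes Ankrd2 and Ankrd23 stood at 0.622 ± 0.299 and 0.723 ± 0.503 TPM, and the exons of Ankrd23 are 78.2% covered by another gene. Amotl2 encodes an angiomotin that binds YAP and holds it outside the nucleus, and is itself a target gene. It stood at 57.9, 74.7, 50.03 and 60.3 TPM, a mean of 60.7 ± 10.3 TPM, with library 2 high by a small margin. The other angiomotins were close to it, with Amotl1 at 67.4 ± 15.9 TPM and Amot at 45.6 ± 14.4 TPM.

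The 3 abundant target genes of the 10 members stand in a wider signature of 22 conserved YAP/TAZ targets. All 22 were expressed (63.3% of protein-coding genes were), with a median level of 31.2 TPM. Besides Ccn1 at 160.4 ± 55.4 TPM, the highest were F3, the coagulation initiator tissue factor, at 135 ± 86.6 TPM and Ccn2. The lowest were Foxf2, a mesenchymal transcription factor, at 2.64 ± 0.832 TPM and Tgfb2, a TGF-beta ligand, at 6.53 ± 1.47 TPM. Library 2 held the highest value for 16 of the 22 genes, against 23.4% of 12636 expressed protein-coding genes, and the summed level was 801, 1507, 823 and 1182 TPM in libraries 1 to 4. Many of these genes have other known inputs, and the list includes Ccn1, Ccn2, Ankrd1 and Amotl2 themselves.

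Among the contractile genes, Tpm1 and Acta2 were abundant. Tpm1, a tropomyosin that lies along actin filaments, stood at 125, 171, 128 and 147 TPM, a mean of 143 ± 21.02 TPM (SD, n = 4), with library 2 the highest and a span of 1.36-fold. Acta2, the actin isoform typical of smooth muscle and activated stellate cells, stood at 102, 193, 114 and 87.3 TPM, a mean of 124.3 ± 47.3 TPM. Library 2 was the highest and library 4 the lowest, so Acta2 was not high in both of the libraries in which Ccn1 and Ccn2 were high. Gene counts do not separate the muscle and non-muscle isoforms of Tpm1.

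Myl9, Cnn1 and Tagln were lower. Myl9, a myosin regulatory light chain of smooth muscle and non-muscle cells, had 363, 308, 156 and 166 counts, or 30.2, 26.1, 17.03 and 13.7 TPM. Libraries 1 and 2 were high and libraries 3 and 4 low. Cnn1, a calponin that marks differentiated smooth muscle, had 74, 83, 52 and 43 counts, a mean of 2.38 ± 0.628 TPM (SD, n = 4), with library 4 the lowest. Tagln, which encodes the actin-binding protein SM22-alpha, had 19, 26, 14 and 15 counts, or 0.924, 1.29, 0.894 and 0.724 TPM. The low Tagln value carries a limit of counting: 67.9% of its exon bases are covered by exons of the opposite-strand genes Pcsk7 and Gm48529 in GENCODE M21, and how reads in shared exons were assigned is not given in the sources used here. With its whole count divided by the 639 bases that no other gene covers, Tagln would stand at 2.98 ± 0.737 TPM, still below every member except Cnn1. That value is an upper bound, since reads within those bases were not counted apart. The other contractile members have no overlapping exons, and no window of 100 bases in the transcripts of Acta2, Myl9, Tpm1 or Cnn1 recurs in another gene's annotated transcripts.

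Each contractile member was then set beside paralogs that non-muscle cells use, as a log2 ratio of (TPM + 0.1) in each library. All 6 such ratios were negative in 4 of 4 libraries. This common direction holds for the pairs chosen, which did not cover every paralog. Myl12b, which was not paired, stood below Myl9 in every library. Actg1 and Tpm3, also not paired, stood above Acta2 and Tpm1 in every library. Acta2 was below Actb, cytoplasmic beta-actin at 1976 ± 111 TPM, by -4.26, -3.46, -4.09 and -4.42 in libraries 1 to 4. In the actin family Acta2 made up 3.61% ± 1.09 of the summed TPM, more than the other muscle actins Actg2, Acta1 and Actc1 at 5.94 ± 2.24, 1.63 ± 1.19 and 0.136 ± 0.159 TPM. Actg1, the other cytoplasmic actin, stood at 1284 ± 143 TPM, and 29.9% of its 100-base windows recur in pseudogenes.

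The calponin and transgelin families differed most. Cnn1 was below Cnn2 by a log2 ratio of -6.05 ± 0.36 and below Cnn3 by -7.35 ± 0.32 (SD, n = 4). Cnn2 and Cnn3, the calponins of non-muscle cells, stood at 162 ± 33.7 and 394 ± 31.8 TPM. Tagln was below Tagln2 by -8.25 ± 0.31, or -6.71 with exon bases free of other genes as length, and Tagln2 stood at 316 ± 19.5 TPM. Tagln3, known from neurons, stood at 5.66 ± 2.53 TPM. These families thus held almost all of their transcripts in the non-muscle members, with Cnn1 at 0.269% ± 0.0607 and Tagln at 0.108% ± 0.0208 of the summed TPM of the 6 genes.

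Tropomyosins were more even. Tpm1 made up 11.2% ± 0.393 of the summed TPM of the family (SD, n = 4), below Tpm4 at 684.5 ± 154 TPM and Tpm3 at 349 ± 9.97 TPM, and close to Tpm2 at 103 ± 11.8 TPM. The ratio of Tpm1 to Tpm4 was -2.25 ± 0.13 with the union of exons and -1.13 with the longest transcript, negative both ways. Myl9 was below Myl12a, its non-muscle paralog at 78.0 ± 7.84 TPM, by -1.90 ± 0.50. Myl12b stood at 4.54 ± 0.939 TPM, with a range of 3.71 to 5.73 TPM against 13.7 to 30.2 TPM for Myl9. Of the 100-base windows of Myl12b, 24.0% recur in Myl12a, so the split between Myl12a and Myl12b is uncertain. The highest regulatory light chain was Mylpf, known from fast skeletal muscle, at 228, 126, 221 and 171 TPM in libraries 1 to 4; it made up 61.7% ± 8.17 of the family's summed TPM, shares no 100-base window with another annotated gene, and was lowest in library 2, where most of the members were highest. The atrial chain Myl7 stood at 8.06 ± 3.59 TPM and the ventricular chain Myl2 at 0.207 ± 0.0822 TPM.

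**Figure D3:**
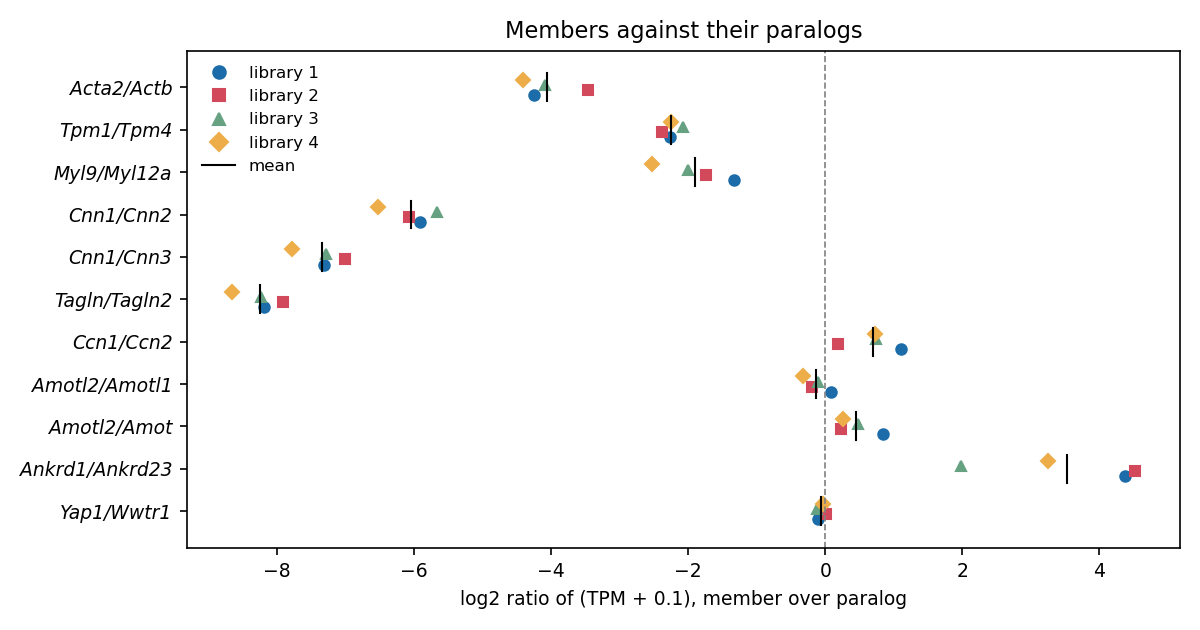
Log2 ratio of (TPM + 0.1) of each member over its paralog, per library (points) with the mean of 4 libraries (bars); the dashed line marks equal levels. The 6 contractile pairs lie left of 0 in every library, from -8.25 on average for Tagln over Tagln2 to -1.90 for Myl9 over Myl12a, while Yap1 over Wwtr1 and Amotl2 over Amotl1 lie near 0.

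The pairs of the YAP group had no common direction. Ccn1 was above Ccn2 by 1.11, 0.19, 0.74 and 0.72 on the log2 scale, and Amotl2 above Amot by 0.84, 0.23, 0.47 and 0.26, both in 4 of 4 libraries. With exon bases free of other genes as length, Ccn1 was above Ccn2 by a mean of 0.31. In library 2 Ccn2 was then the higher, at up to 261 against 229 TPM. Amotl2 was above Amotl1 in 1 of 4 libraries, with a mean of -0.14 ± 0.18 (SD, n = 4) that turned to 0.20 with the longest transcript as length. Ankrd1 was above Ankrd23 by 3.53 ± 1.17. No p is given for these ratios, because 4 libraries are too few for an exact two-sided sign-flip test to reach 0.05.

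In order of mean level per length, the members ran Ccn1, Tpm1, Acta2, Yap1, Ccn2, Amotl2, Myl9, Ankrd1, Cnn1 and Tagln. Each of the first 5 steps in that order was between genes whose ranges overlapped, with 2 or 3 of 4 libraries in the direction of the means, so these neighbours did not differ beyond their spread. From Amotl2 down, each step was between ranges that did not overlap and held in 4 of 4 libraries, with mean log2 differences of 1.53, 1.30, 1.81 and 1.22. With the longest transcript as length, Tpm1 at 240.2 ± 35.4 TPM and Yap1 at 143 ± 18.2 TPM (SD, n = 4) came first, and the order of the lowest 4 was as before. The last step turned with exon bases free of other genes as length. Tagln then stood at 2.88, 4.00, 2.78 and 2.25 TPM and Cnn1 at 2.62, 2.98, 2.41 and 1.51 TPM. Tagln was thus the higher in 4 of 4 libraries, with overlapping ranges. These Tagln values are upper bounds, so the order of the 2 genes is not settled.

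The upstream factors of the contractile programme were also measured. Of 10 listed genes for SRF and its cofactors, 8 were expressed. Srf itself stood at 46.5 ± 3.29 TPM, and the tension-sensitive cofactors Mrtfa and Mrtfb at 24.2 ± 1.56 and 18.1 ± 3.09 TPM (SD, n = 4). Fhl1, Srf and Elk3 were the highest of the list, with Fhl1 at 48.9 ± 4.03 and Elk3 at 35.9 ± 8.18 TPM. Myocd, which encodes the cofactor specific to smooth and cardiac muscle, had 58, 76, 37 and 42 counts, a mean of 0.849 ± 0.233 TPM, and Abra had 2, 2, 0 and 2 counts. Of 17 SRF and MRTF targets used outside muscle, 16 were expressed. Actb, Actg1 and Tpm4 led them. Fosb, the one not expressed, at 1.65 ± 0.956 TPM and Egr2 at 2.49 ± 0.993 TPM were the lowest, and both are immediate early genes.

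Genes that set the phosphorylation of myosin light chains differed widely in level. Ppp1cb, a phosphatase subunit, stood at 135 ± 8.45 TPM and the myosin phosphatase subunit Ppp1r12b at 2.79 ± 0.261 TPM (SD, n = 4). The Ppp1r12b paralogs Ppp1r12a and Ppp1r12c were far higher, at 89.0 ± 3.90 and 47.4 ± 3.17 TPM. The cardiac kinase Mylk3 was not expressed, at 10, 62, 11 and 23 counts. Mylk, the light chain kinase of smooth muscle, stood at 1.86, 5.63, 1.36 and 2.44 TPM, with library 2 the highest. All 18 non-muscle actomyosin genes were expressed, with Actb, Actg1 and the actin-severing factor Cfl1 (687 ± 29.7 TPM) highest and Myl12b and the myosin heavy chain Myh14 (19.2 ± 3.15 TPM) lowest.

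Of 20 focal adhesion and stress fibre linkers, 19 were expressed. Itgb1, the beta-1 integrin, stood at 808 ± 172 TPM, the crosslinker Flna at 308 ± 51.7 TPM and Csrp1 at 279.9 ± 48.5 TPM (SD, n = 4). Tln2 stood at 10.6 ± 0.960 TPM. Ilk, an adhesion pseudokinase, was listed at 12, 7, 5 and 8 counts, and 89.7% of its exon bases are covered by other genes, so its value is uncertain. All 12 genes of the TGF-beta list, a further known input to contractile genes, were expressed, with the signal transducer Smad4 and the inhibitor Smad7 at 118 ± 14.5 and 93.2 ± 23.7 TPM (SD, n = 4) and the ligands Tgfb3 and Tgfb2 lowest at 5.59 ± 1.80 and 6.53 ± 1.47 TPM.

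Markers of cells that express contractile genes at high levels were counted beside these values. Of 13 smooth muscle markers, a list that includes Cnn1 but not Acta2, Tagln or Myl9, 7 were expressed. Des, Smtn and Hspb6 were the highest at 66.4 ± 15.9, 22.4 ± 1.87 and 18.1 ± 2.77 TPM (SD, n = 4). Myh11, the smooth muscle myosin heavy chain, stood at 0.443 ± 0.0994 TPM, Kcnmb1 at 2, 4, 1 and 0 counts and Pln at 0 counts in all libraries. A count of 0 allows up to 3 counts, or 0.0747 to 0.102 CPM (counts scaled to library size), for counting error only. Of 12 cardiac markers 6 were expressed, with Tnni3 the highest at 10.1 ± 3.84 TPM, and of 10 skeletal muscle markers 2 were expressed, Mylpf and Tnnt3, with Myf5 at 0 counts. Of 14 fibroblast, stellate cell and pericyte markers, 11 were expressed, led by Col1a1, Col3a1 and Col1a2 at 1173 ± 446, 273 ± 144 and 267 ± 152 TPM, while Lrat and Reln, which mark quiescent stellate cells, were lowest at 0.0481 ± 0.0307 and 0.0614 ± 0.0446 TPM.

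The spread between cultures differed among the members. It was measured as the SD of log2(CPM + 1) over the 4 libraries. Ccn2 had the largest SD, 0.77, at the 99.5th percentile of protein-coding genes of similar mean expression (genes were ranked by mean CPM and divided into 10 equal bins). Acta2 (0.46) and Ccn1 (0.45) were at the 98.0th and 97.8th percentile. Without library 2 the SD fell to 0.46 for Ccn2, 0.22 for Acta2 and 0.091 for Tpm1, and for Ccn1 it was 0.36. Myl9 (0.47) and Ankrd1 (0.43) were at the 90.5th and 88.5th. Without library 1 the SD was 0.28 for Ankrd1 and 0.077 for Yap1, and without library 4 it was 0.077 for Cnn1. Yap1 (0.14), Tpm1 (0.16), Amotl2 (0.20) and Cnn1 (0.26) lay between the 43.9th and 78.8th percentile. The SD of Tagln was 0.11, on counts too low to be ranked, and 0.068 without library 2. In each case the library left out was farthest from the gene's mean, so a fall in SD follows from that choice. The median SD of the 10 members was 0.34, against 0.17 for 13081 protein-coding genes with a mean of 1 CPM or more.

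Library 2 held the highest CPM for 8 of the 10 members and library 1 for Ankrd1 and Myl9. Among 12636 expressed protein-coding genes, 23.4% were highest in library 2 and 33.6% in library 1. The libraries in which Ccn1 and Ccn2 were high also held more transcript of parietal endoderm markers, whose 14 genes, all expressed, summed to 3256, 10429, 3957 and 7978 TPM in libraries 1 to 4. Fibroblast and stellate markers summed to 1696, 3595, 1452 and 2518 TPM, in the same order of libraries as Ccn1. Hepatocyte markers, of which 4 of 14 were expressed, summed to 24.5, 99.9, 28.6 and 44.6 TPM, in the same order of libraries as Ccn2. Pluripotency markers summed to 8389, 4710, 7696 and 5705 TPM, in the opposite direction. The listed smooth muscle markers summed to 148, 110, 134 and 108 TPM, with no excess of the sum in library 2. That sum depends on the list, which leaves out Acta2, Tagln and Myl9. Acta2, at 102, 193, 114 and 87.3 TPM, was above every listed marker and highest in library 2. Tagln was also highest in library 2, and Myl9 in library 1. Des, the most abundant listed marker, led the sum at 84.9, 52.1, 74.4 and 54.4 TPM. Of the 7 expressed, 4 were highest in library 1, 2 in library 2 (Actg2 and Cnn1) and 1 in library 4. The part of these cell types in the differences between cultures was not tested.

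**Figure D4:**
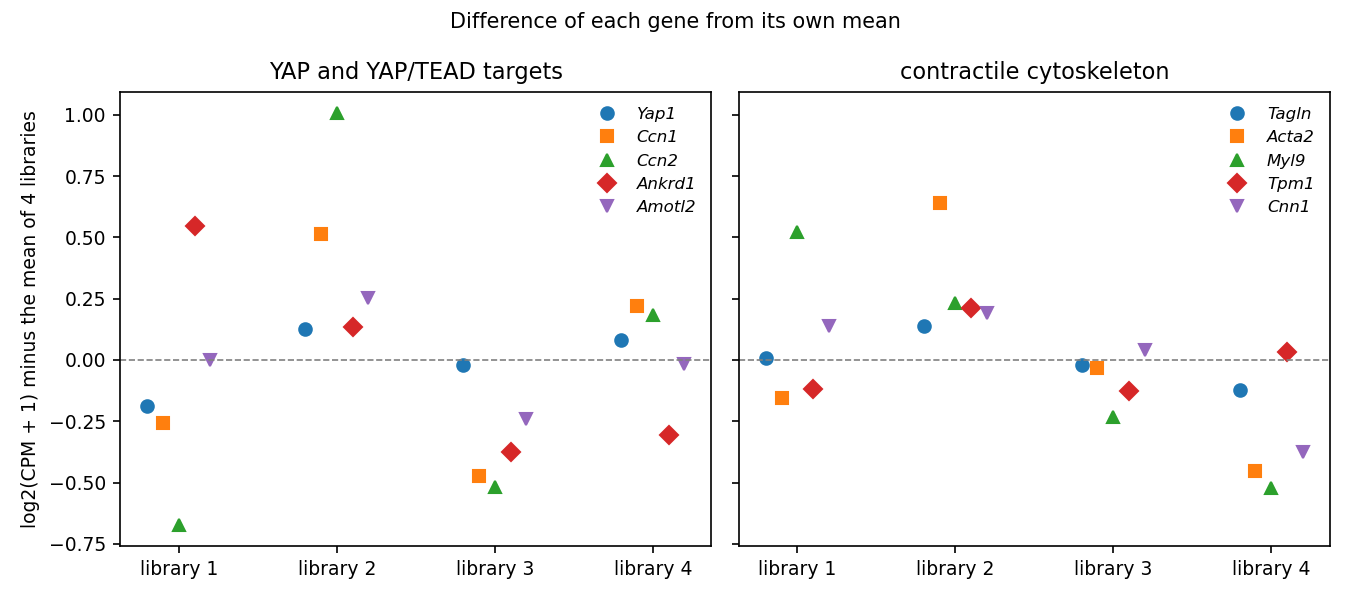
Log2(CPM + 1) of each member minus its mean over the 4 libraries, for YAP and its targets (left) and contractile genes (right). Ccn1 and Ccn2 lie above 0 in libraries 2 and 4, Ankrd1 and Myl9 are highest in library 1, and Acta2 is above 0 in library 2 only.

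To ask whether a culture stood apart, edgeR's quasi-likelihood test set each library in turn against the remaining 3, on 17398 genes with Benjamini-Hochberg adjustment. The labels define no groups among the cultures, and the spread of the single library is taken to equal that of the 3. No member passed an adjusted p of 0.05 in any of the 4 comparisons, in which 0.0% of all genes were called and 926, 1284, 274 and 269 genes had an unadjusted p under 0.05 (edgeR). In library 2, 5 of 10 members had an unadjusted p under 0.05 (edgeR): Ccn2 with a log2 difference of 1.38, Acta2 with 0.93, Ccn1 with 0.73, Amotl2 with 0.41 and Tpm1 with 0.36, each with an adjusted p of 0.626. No member did so in libraries 1, 3 and 4 (edgeR). The DESeq2 Wald test called 2 of 10 members in library 2, Acta2 (adjusted p = 0.00834) and Ccn2 (adjusted p = 0.0220), where it called 0.424% of genes, and no member in the other 3 libraries, where 0.046%, 0.0172% and 0.0172% of genes were called. Without a filter on low counts edgeR called Ccn2, Acta2 and Ccn1 in library 2 (1.19% of genes called) and Ccn2, at a log2 difference of -1.14, in library 1 (0.836%).

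These calls depended on which cultures were compared. Without library 4, edgeR called Ccn1, Ccn2, Amotl2, Acta2 and Tpm1 in library 2, with 14.4% of all genes called. Without library 2, Ccn1 and Ccn2 were called in library 4, by 0.65 and 0.85 on the log2 scale (7.8% of genes called). Without library 3, Ccn1 and Ccn2 were called in library 1, at -0.72 and -1.43 (12.4% of genes called), and without library 1, Ccn1, Ccn2 and Amotl2 were called in library 3, at -0.93, -1.27 and -0.44 (7.35% of genes called). In each of these fits only the opposing 2 libraries informed the spread. Of all fits that left out a library, only those named here gave any calls. Yap1, Ankrd1, Myl9, Cnn1 and Tagln were called in none of the comparisons run.

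Genes with the pattern most like each member over the 4 libraries were found by the root mean square difference of log2(CPM + 1) centred on each gene's mean, among protein-coding genes with a mean of 10 CPM or more and an SD at least 0.5 times that of the member. For Ccn2 the nearest were Ccl2, a chemokine, at 0.0606 and Capn6, a calpain without protease activity, at 0.0656, and 5 of 638 genes lay within 0.1. Ccl2 stood at 26.0, 89.7, 28.3 and 53.7 TPM. For Ccn1 the nearest were Adamts2, a procollagen protease, at 0.0175 and Psd3 at 0.0179, with 43 of 2315 genes within 0.1.

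For Acta2 the nearest was Bnip3, a mitophagy receptor, at 0.0996, at 76.4, 166, 89.2 and 77.8 TPM, the only gene of 2169 within 0.1, and Slc7a11, a cystine transporter, followed at 0.154. Rpl21, a ribosomal protein gene, was nearest to Ankrd1 at 0.0992, before C1s1 at 0.121, and second to Myl9 at 0.109, behind Gm14410 at 0.0906. For Yap1, Vapb and Rala were nearest, at 0.00387 and 0.00618, and 1384 of 8390 genes lay within 0.1. The limit of 0.1 is the same for all members, so a gene with a small spread has more neighbours within it. These counts therefore do not show how common a pattern is. For Tpm1 (Arhgdib and Cul1), Tagln (Kdm6a and Lztfl1) and Amotl2 (Msrb3 and Ano10), 1102, 939 and 224 genes lay within 0.1. For Cnn1 the nearest was Fmn1, a formin, at 0.0309, then 1700019D03Rik at 0.0378, with 11 of 5697 genes within 0.1. With 4 libraries these values describe likeness only.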

How the data were processed

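RNA of 4 libraries was analysed as a single group. The authors deposited unnormalised gene counts, made with STAR and featureCounts on GRCm39 (mm39), per the submitters' processing notes. Their versions, annotation and options for counting were not stated there. The labels' protocols describe polyadenylated RNA in libraries without strand information. Even numbers made up 60.0% to 62.6% of the counts between 1 and 8, so whether a count is a read or a read pair is not settled. The labels call the cultures independent, and no further batch is named.

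From the counts, CPM and TPM were computed with exon-union lengths from GENCODE M21 (GRCm38), which matched 48761 of 78028 rows (48083 by symbol, 51 by gene ID, 627 by another symbol). Ratios used TPM + 0.1 and spreads CPM + 1. Where exon bases free of other genes served as length, the whole count of a gene was divided by them. Such a value is too high if any counted read fell in shared exons. edgeR 4.0.16 (TMM, filterByExpr, quasi-likelihood test) and, as an alternative, DESeq2 1.42.0 were run in R 4.3.3, after edgeR was tested on simulated data; Python 3.11.15, numpy 2.4.6 and pandas 2.3.3 were used otherwise. Intervals for 0 counts cover counting error only. Alternatives were CPM, TMM scaling, thresholds of 0.5 and 5 TPM, a pseudocount of 1, size factors, no low-count filter and leaving out each library; 2 other gene lengths and the looser CArG search were added after seeing the data.

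Named genes are all members and their paralogs, the TEAD genes and the 2 genes nearest to each member. Also named are the 3 highest and 2 lowest of each pathway list and of the fibroblast and smooth muscle lists. Mylk, Stk3, Lats1, Mrtfa, Mrtfb, Vgll3, Vgll4, Amot, Ppp1r12a, Ppp1r12c, Tnni3, Tnnt3, Myf5 and Fabp1 were added as pathway parts or markers with their values known. The members and lists were chosen with earlier results of these data known. Some items that the rule names are not reported here. Files hold no column of any other sample.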

Additional observations from a re-analysis of the deposited data

How the results depend on the processing

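The number of members expressed was 8 to 10 under all 10 alternatives. Of 270 list counts under alternatives, 262 stayed within 1.5 times. At 5 TPM the counts were 3 calponins and transgelins, 3 smooth muscle, 2 cardiac, 1 skeletal muscle, 2 endothelial and 1 hepatocyte marker; at 0.5 TPM 4 skeletal muscle markers were counted, and 2 muscle ankyrin repeat genes with exon bases free of other genes. With a pseudocount of 1 the log2 ratios were -5.59 for Cnn1/Cnn2, -6.89 for Cnn1/Cnn3 and -7.34 for Tagln/Tagln2. With CPM they were -0.69 for Tpm1/Tpm4, -3.42 for Myl9/Myl12a, 0.19 for Ccn1/Ccn2, -0.81 for Amotl2/Amotl1, 0.034 for Amotl2/Amot and 0.89, reversed, for Yap1/Wwtr1. With the longest transcript they were -1.13 for Tpm1/Tpm4, -2.65 for Myl9/Myl12a and, reversed, 0.20 for Amotl2/Amotl1 and 0.72 for Yap1/Wwtr1. With free exon bases as length they were -6.71 for Tagln/Tagln2, 0.31 for Ccn1/Ccn2 and 1.52 for Ankrd1/Ankrd23. These follow from the lengths and pseudocounts used. Of 60 spreads under alternatives, 9 moved: 7 on leaving out 1 library, and with a pseudocount of 0.1 Tagln to 0.27 and Cnn1 to 0.40. Against the other 3, genes called in libraries 1 to 4 numbered 0 with edgeR and 328, 469, 1 and 6 without a filter, where the cause was not tested. DESeq2 called 8, 68, 3 and 3. Leaving out a library gave 0 to 2206, 0 to 2552, 0 to 1303 and 0 to 1386. No paired analysis was possible because there is a single group. Depth limits Tagln and Cnn1 most, at 14 to 83 counts.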
